A study of Mus musculus with 12 samples.

Results

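The mRNAs described here code for splicing factors, both regulators and subunits of the splicing machinery. They are the 51 protein-coding genes whose symbol begins with Srsf, Hnrnp, Sf3a, Sf3b or Snrp in the gene names of the deposited lists, pseudogenes left out, of 14562 genes that had any listed cytosine. The choice rests on names and uses no measured value. By family there were 10 Srsf genes, 20 Hnrnp genes, 9 Sf3a and Sf3b genes and 12 Snrp genes, and each of the 12 libraries listed between 49 and 51 of them.

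Neural stem cells (NSCs) from the subventricular zone of wild-type male C57BL/6 mice aged 6 to 8 weeks were cultured for 4 days with low (LF, 1.5 μM), intermediate (MF, 10 μM) or high (HF, 80 μM) folic acid, and the study asked how folate affects m5C in mRNA and the loading of mRNA on ribosomes. Poly(A) RNA came from whole cells (groups LF, MF and HF, called total RNA) or from the pooled polysome fractions of a sucrose gradient loaded with a cleared hypotonic lysate of cycloheximide-treated cells (groups pLF, pMF and pHF). All groups were wild type. Each of the 6 groups had 2 replicates. The study calls them biological replicates, without saying in the sources used here whether they came from separate cultures or animals, so the p-values measure only the spread between these samples, which may be technical. In cultures measured in bulk, fewer cells of a type and less RNA per cell cannot be told apart.

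RNA bisulfite sequencing converts unmethylated cytosine to a base read as T, while m5C, and any cytosine the reaction missed, stays C. The deposited lists hold, for every cytosine with at least 10 reads and at least 1 unconverted read, the coverage and the unconverted reads. Coverage therefore serves as a measure of how much of an mRNA was present, and the unconverted share of reads as the level of m5C.

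Splicing removes introns through the spliceosome, which is built from small nuclear ribonucleoproteins (snRNPs) and many helper proteins. SR proteins (Srsf genes) bind exons and mostly favour their inclusion, while hnRNP proteins coat new transcripts and often oppose it. Many genes of both families control their own dose through exons or introns that carry a premature stop codon: transcripts that keep them are held in the nucleus or destroyed by nonsense-mediated decay once translated.

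Median coverage of a gene was first taken over its cytosines with a level under 0.05 in a library, and was then divided by the library's median gene, which gives the relative coverage used below. The median gene had a coverage between 269.5 and 588 in the 12 libraries. Replicates correlated at 0.80 to 0.91 across genes on the log2 scale. Both libraries labelled HF stood apart from the other total libraries, with 5530 and 4460 called m5C sites outside the mitochondrial genome against 1392 to 1941, and replicate 2 of pHF stood apart from the other polysome libraries, with the fewest listed cytosines (779105) and 38353 of them at a level above 0.9. NSC markers (12 tested of 15, with Sox2 not listed) summed to a relative coverage of 117 to 160 in all 12 libraries, and of the endothelial and ependymal markers none could be tested. Mesenchymal markers (6 tested of 11, Dcn and Postn not listed) summed to 36.7 and 37.5 in the libraries labelled HF against 13.7 to 20.4 in the others, oligodendrocyte lineage markers (2 tested of 9) to 9.82 and 10.9 there against 23.7 to 24.2 in LF and MF, 17.1 to 22.8 in pLF, 17.6 to 18.8 in pMF and 12.8 to 19.1 in pHF, and neuron and microglia markers to at most 3.43 in any library. The mesenchymal and oligodendrocyte markers move with every comparison that uses the libraries labelled HF. Oligodendrocyte markers were also lower, and NSC markers higher, in pLF than in LF and in pMF than in MF without overlap, and neuron markers (2 tested of 9) were higher in pMF (2.78 and 3.43) than in MF (1.44 and 2.14). The part of any of these markers in the results was not tested.

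Exon sequence that only transcripts annotated as nonsense-mediated decay targets or as retaining an intron contain had fewer unconverted reads on polysomes than in total RNA, relative to coding exons, in 6 to 9 of the 10 splicing factor genes where it could be measured. The measure, added after the data were seen, is the number of unconverted reads at such exon bases against those at exon bases of protein-coding transcripts of the same gene. It follows the amounts of RNA if missed conversion is equally likely in both, which was not tested, and it does not depend on how libraries are scaled. Counts did not always move with coverage between libraries. The main stretch of Hnrnpl, described below, held 267 and 166 such reads in HF at median coverages of 85.5 and 59. In MF it held 96 and 55 at 355 and 361. Read counts of single libraries are thus not amounts of RNA. With a mean of at least 10 such reads in both classes, 201 genes could be tested, 10 of them splicing factors. This mean was taken over total and polysome libraries together, so a gene with few such reads on polysomes passed through total RNA, where they are many, and had to differ. All 201 genes were chosen this way, and the counts below are a description that supports nothing about the splicing factors. Lower values on polysomes passed the threshold (adjusted p under 0.05, limma, over all 201 genes) in 6 of the 10 at 1.5 μM, 9 at 10 μM and 7 at 80 μM folic acid, and none was higher. With 5 reads added to each class in place of 0.5, only 4, 4 and 5 were called lower, beside 66, 39 and 41 of the 201 genes, and the median log2 ratio of the 10 moved from −3.76, −4.15 and −4.24 to −1.89, −1.81 and −2.42 (all 201 genes from −3.56, −3.28 and −2.79 to −1.47, −1.20 and −0.94). The background was also high: 57.2% of all genes tested were called lower in pLF against LF, 56.7% in pMF against MF and 49.8% in pHF against HF. Low shares of reads in decay and retained-intron exons on polysomes were thus common among all genes tested, and whether splicing factors differ from the rest was not tested.

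Over all 51 genes, these exons took 1.23% to 2.20% of the unconverted reads in the total libraries and 0.0875% to 0.196% in the polysome libraries. Over all genes the shares were 0.466% to 0.609% and 0.149% to 0.186%. The ranges of total and polysome libraries did not overlap in either case, and the splicing factors started from a higher share in total RNA.

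**Figure D1:**
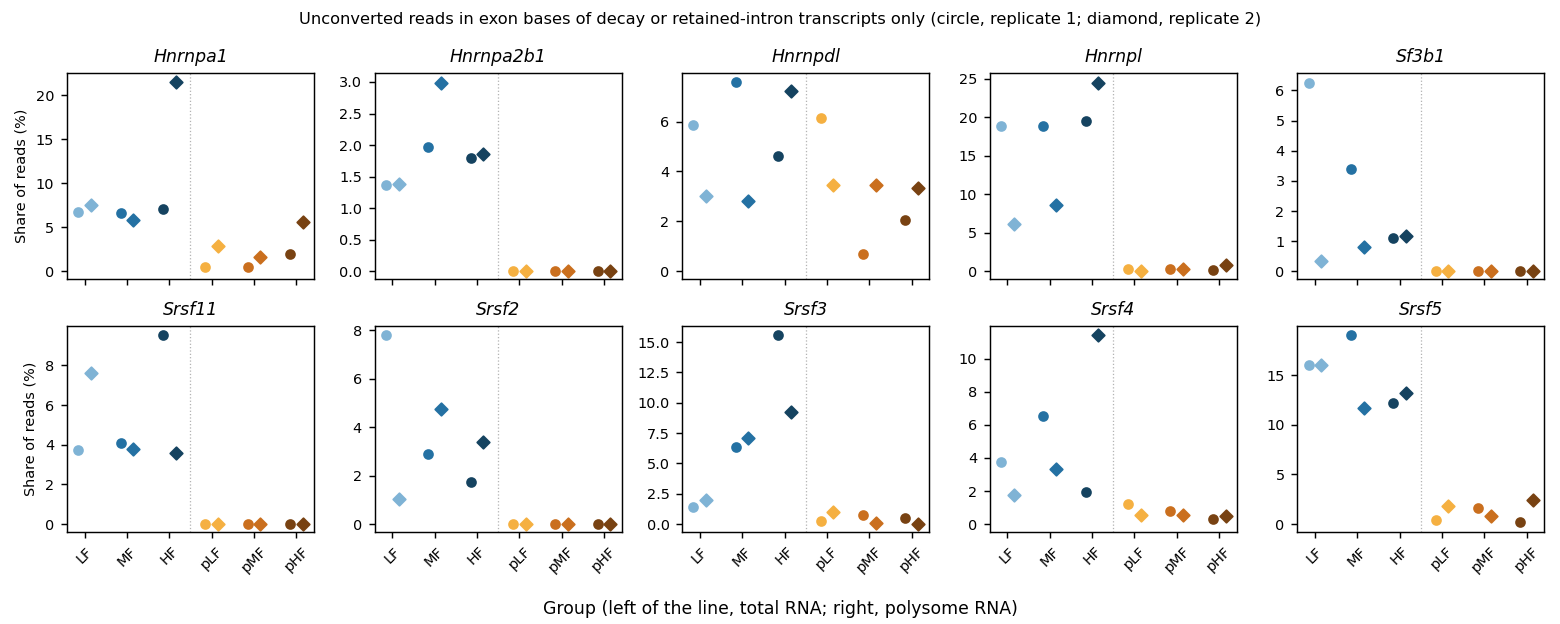
Share of a gene's unconverted reads (%, reads in decay or retained-intron exons over those plus reads in protein-coding exons) for the 10 splicing factor genes tested, per library. Each point is a library, with circles for replicate 1 and diamonds for replicate 2, total RNA left of the dotted line and polysome RNA right of it. Polysome points lie at or near 0 in Hnrnpa2b1, Hnrnpl, Sf3b1, Srsf2 and Srsf11 and mix with total points in Hnrnpdl.

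Srsf5, an SR protein that binds purine-rich exon sequence, had the most such reads of the SR genes tested in each total group. The retained stretch with most of them lies at mm10 chr12:80947866-80949094 on the plus strand, 1229 bases annotated only to retained-intron transcripts. In replicates 1 and 2 it and the gene's other decay or retained-intron exons held 157 and 128 reads (LF), 134 and 141 (MF) and 90 and 124 (HF), against 1 and 8 (pLF), 4 and 3 (pMF) and 1 and 10 (pHF). Coding exons of the same gene held 571 to 1063 reads in total and 243 to 562 in polysome libraries. The few cytosines of the stretch that polysome libraries listed had a median coverage of 49 to 193, so the sequence was not absent there. Relative to coding exons, Srsf5 fell by 4.18 ± 1.08 (SE) on the log2 scale in pLF against LF (adjusted p = 0.00406), by 3.70 ± 1.08 in pMF against MF (adjusted p = 0.00978) and by 4.13 ± 1.08 in pHF against HF (adjusted p = 0.00567, limma for all). Without replicate 1 of pHF, without replicate 1 of MF or without replicate 2 of pMF, the adjusted p of the comparison at that concentration passed 0.05.

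Hnrnpl, which binds CA-rich RNA and represses or activates exons, held a few such reads on polysomes. Its main stretch is mm10 chr7:28815353-28816960 on the plus strand, 1608 bases that only retained-intron transcripts hold. Over this stretch and the gene's other decay or retained-intron exons, both LF libraries held 162 and 58 reads, both MF libraries 143 and 92, and those labelled HF 339 and 324, against 3 and 1 (pLF), 2 and 2 (pMF) and 1 and 6 (pHF). The groups did not overlap, with every total library at least 58 and every polysome library at most 6. The log2 ratio to coding exons fell by 5.77 ± 1.04 (SE), 5.39 ± 1.04 and 6.04 ± 1.04 at 1.5, 10 and 80 μM (adjusted p = 0.000484, 0.000853 and 0.000533, limma), and each call held with any 1 library left out.

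For 4 genes no such read was listed in any of the 6 polysome libraries: Hnrnpa2b1, Srsf2, Srsf11 and Sf3b1. Hnrnpa2b1, whose protein binds and sorts many mRNAs, had 42, 48, 61, 101, 70 and 55 reads in the total libraries from LF replicate 1 to HF replicate 2, of which 11, 40, 17, 44, 60 and 41 lay at the retained-intron stretch mm10 chr6:51462056-51462759 (minus strand). With a floor of 3 reads over both polysome libraries of a group, its share was at least 27.4-fold lower in pLF than in LF, at least 42.7-fold lower in pMF than in MF and at least 28.1-fold lower in pHF than in HF. This bound and those below hold only if reads are independent, and they leave out the listing cutoff of 10 reads. In replicate 2 of LF the main such stretch of Srsf11 held 52 reads at a median coverage of 18, near that cutoff. Srsf2 (SC35), an SR protein that marks nuclear speckles, had 77, 15, 41, 71, 33 and 53 reads in total RNA. Its bounds were at least 15.9-fold, 9.58-fold and 6.91-fold lower on polysomes. Srsf11, an SR-related protein, had 31, 89, 38, 36, 82 and 28 reads in total RNA and bounds of at least 19.8-fold, 10.0-fold and 23.2-fold. Without replicate 1 of LF, which held most of its reads there, the bound of Srsf2 at 1.5 μM was 4.23-fold, and the bounds of Srsf11 were 12.1-fold without replicate 2 of LF and 12.03-fold without replicate 1 of HF. Leaving out a polysome library lowers each bound through the smaller number of coding reads, to as little as 9.71-fold for Hnrnpa2b1, 3.24-fold for Srsf2 and 4.61-fold for Srsf11. These 3 genes were called in all 3 comparisons, which is a description, since they passed the filter through total RNA alone. With 5 reads added, the calls of Hnrnpa2b1 held, Srsf2 was called in none and Srsf11 not at 10 μM (limma).

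Sf3b1, the U2 snRNP subunit that grips the branch point, was uneven between replicates. It had 73 and 4 such reads at 1.5 μM, 46 and 11 at 10 μM and 16 and 12 at 80 μM. Calls were made at 1.5 μM (adjusted p = 0.0266, at least 7.43-fold) and 10 μM (adjusted p = 0.00994, at least 6.88-fold) but not at 80 μM (adjusted p = 0.13, limma). These calls too are a description, since Sf3b1 passed the filter through total RNA alone. Leaving out replicate 1 of LF, replicate 2 of pLF or replicate 1 of MF lost the call at that concentration, and neither call was made with 5 reads added. Without replicate 1 of LF no bound was left at 1.5 μM, and without replicate 1 of MF that at 10 μM was 2.59-fold.

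Srsf3 and Srsf4, SR proteins whose genes carry conserved poison exons, passed the threshold at 10 and 80 μM but not at 1.5 μM. Srsf3 had 13 and 23 reads in LF libraries, 49 and 75 in MF libraries and 88 and 51 where labelled HF, against 1 and 17, 5 and 1, and 3 and 0 in pLF, pMF and pHF. Srsf4 had 24 and 13, 42 and 33, and 11 and 84 in total RNA, against 8 and 5, 4 and 2, and 1 and 3 on polysomes. The log2 ratio of Srsf3 fell by 4.24 at 10 μM and 6.15 at 80 μM (adjusted p = 0.00497 and 0.000669), and that of Srsf4 by 2.68 and 3.40 (adjusted p = 0.0323 and 0.0104, limma). Hnrnpa1 was called at 10 μM only (fell by 2.69, adjusted p = 0.0389). For Srsf3, leaving out replicate 2 of pMF lost the call at 10 μM, and so did leaving out any 1 of the MF and pMF libraries for Srsf4 and any 1 of LF, MF or replicate 1 of pMF for Hnrnpa1. The call of Srsf4 at 80 μM was lost without replicate 2 of HF, and with 5 reads added Srsf4 and Hnrnpa1 were not called at all. Whether the change differed between folate concentrations was not tested for these genes.

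Hnrnpdl, a paralogue of Hnrnpd, was called in no comparison. It had 45 and 32, 52 and 25, and 40 and 39 reads in total RNA at the 3 concentrations and 11 and 11, 3 and 8, and 7 and 5 on polysomes, where its coding reads were lower too. The log2 ratio was 0.18 ± 0.98, −1.49 ± 0.98 and −1.09 ± 0.98 (SE), none past the threshold.

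Intron reads were also fewer on polysomes. Of 628 genes with enough intron reads 5 were splicing factors. They passed that filter on the mean over all 12 libraries, and Hnrnpu, Srsf10 and Srsf4, with no intron read in any polysome library, passed through total RNA alone, so these counts too are a description. Of the 5, 5, 4 and 4 were called lower at 1.5, 10 and 80 μM against a background of 75.8%, 77.7% and 68.3% of all genes tested. With 5 reads added they were 4, 2 and 2, without Hnrnpu at any concentration and without Srsf10 at 10 and 80 μM or Hnrnpa2b1 at 80 μM. Srsf4 had 77 and 66, 36 and 88, and 76 and 60 intron reads in total RNA and none in any polysome library, at least 55.7-fold, 23.1-fold and 36.8-fold lower (23.8-fold, 10.1-fold and 12.8-fold at the lowest with 1 polysome library left out). Srsf10, an SR protein that represses splicing when dephosphorylated, had 76 and 107, 38 and 146, and 20 and 68 and likewise none on polysomes, where it also had few coding reads (17 to 242). Its call at 10 μM was lost without replicate 2 of MF or of pMF, that at 80 μM without replicate 2 of HF or replicate 1 of pHF, and the call of Hnrnpu at 1.5 μM without replicate 1 of LF or any of the MF and pLF libraries. Hnrnpa2b1 was the exception at 10 μM, where replicate 2 of pMF held 24 intron reads, as against 7 and 19 in MF. Because a cytosine is listed only with 10 reads or more, the absence of a read means less than that coverage or no missed conversion, and not that the RNA was absent. Reads from 1 poorly converted molecule count several times, so counts of single libraries are clumped. Whole-cell RNA included nuclear RNA, which a cleared hypotonic lysate largely leaves behind, and gradient fractions with few ribosomes were not pooled. Nuclear transcripts, transcripts lost in the cytoplasm and transcripts with few ribosomes thus cannot be told apart here.

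**Figure D2:**
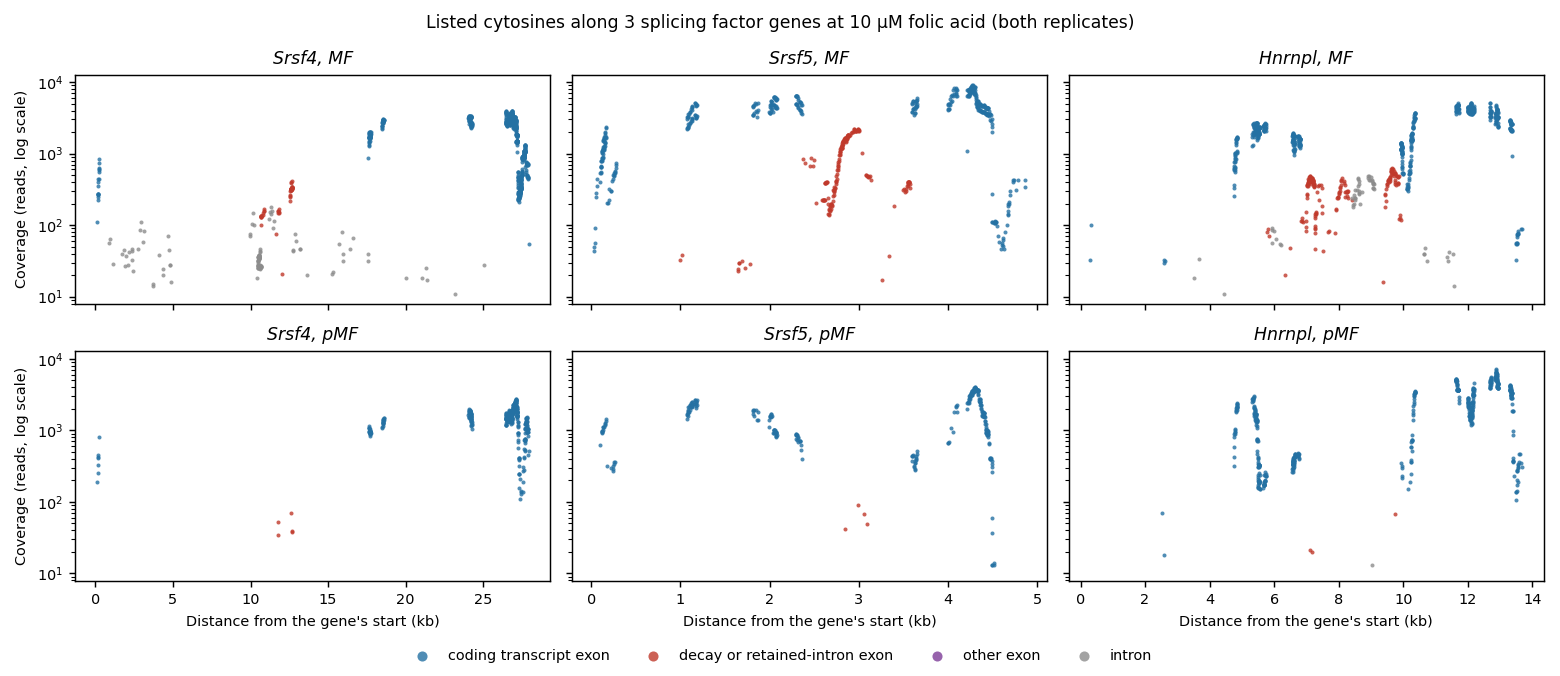
Coverage (reads, log scale) of every listed cytosine along Srsf4, Srsf5 and Hnrnpl against distance from the gene's start (kb), with MF above and pMF below and both replicates drawn together. Colours separate exons of coding transcripts, exons found only in decay or retained-intron transcripts, other exons and introns. Between coding exons, the red and grey points that fill the genes in MF are nearly gone in pMF.

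Polysome against total coverage of the whole mRNA was measured next. Of the 51 genes, 48 passed the filter on listed cytosines (a mean of at least 20 per library and at least 5 in each) among 8127 genes, and Snrpg, Snrpn and Srsf12 did not. In pLF against LF, 5 of the 48 rose and 3 fell, while 12.9% of all genes tested were called. In pMF against MF, 3 rose and 3 fell with 12.4% called, and in pHF against HF 7 rose and 2 fell with 13.5% called. With the mean coverage of a gene's cytosines in place of the median, 8 rose and 12 fell, 7 rose and 13 fell, and 17 rose and 5 fell. Over all 8127 genes, 1573 then rose and 1291 fell, 1528 rose and 1274 fell, and 1992 rose and 1581 fell. The balance of the 48 genes thus turned at 1.5 μM and went from even to more falls at 10 μM, while all genes kept more rises than falls. Whether these shares differ from the background was not tested. The median log2 difference of the 48 genes was 0.23, 0.11 and 0.41 at 1.5, 10 and 80 μM, beside 0.07, 0.07 and 0.03 over all genes tested. By mean coverage it was 0.04, −0.03 and 0.18. Over cytosines listed in all 12 libraries, with 17 splicing factors tested, it was 0.09, 0.05 and −0.05. Scaling by the upper quartile moved the median of all genes to −0.13, −0.10 and −0.15 and their calls from 624 higher and 425 lower to 435 and 600 at 1.5 μM, from 621 and 384 to 437 and 504 at 10 μM and from 612 and 482 to 477 and 696 at 80 μM. TMM scaling gave 493 and 531, 511 and 478, and 606 and 518. Splicing factors were then called 4 higher and 5 lower, 1 and 3, and 6 and 2 under the upper quartile (4 and 4, 2 and 3, and 7 and 2 under TMM), with medians of 0.03, −0.05 and 0.23, so directions of differences this small depend on the scaling. In all, 17 genes were called in at least 1 comparison, 5 in at least 2, and Hnrnpl alone in all 3, and no gene was called in opposite directions. These counts were not taken over all genes and are no result about the splicing factors. Fitted without the libraries labelled HF, 4 rose and 2 fell at 1.5 μM, and 2 rose and 3 fell at 10 μM. Of all 8127 genes, 623 then rose and 403 fell at 1.5 μM, and 608 rose and 342 fell at 10 μM.

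**Figure D3:**
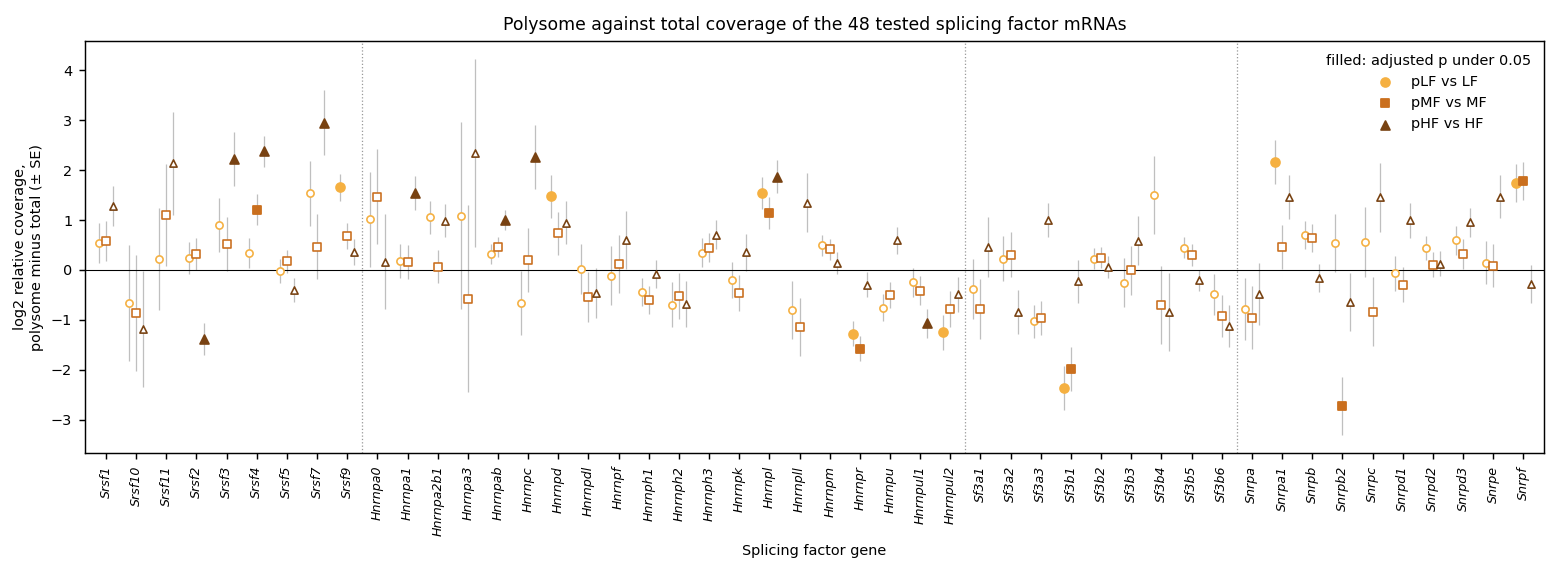
Log2 difference in relative coverage, polysome minus total, for each of the 48 splicing factor genes tested, with bars for the standard error of limma's fit. Circles are pLF against LF, squares pMF against MF and triangles pHF against HF, and filled symbols have an adjusted p under 0.05. Dotted lines part the Srsf, Hnrnp, Sf3 and Snrp genes, and Sf3b1 and Hnrnpr lie low while Hnrnpl lies high in all 3 comparisons or most of them.

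Among SR proteins, the median gene had a relative coverage of 1.83 to 3.81 in total and 3.29 to 5.16 in polysome libraries. The family's median log2 difference was 0.34, 0.53 and 1.29 at 1.5, 10 and 80 μM, beside 0.07, 0.07 and 0.03 over all genes tested. By unconverted reads, described further on, the family's median was −0.31, −0.19 and 0.28, so its direction at 1.5 and 10 μM depended on the measure. Whether this family or those below differ from all genes was not tested. Srsf5, Srsf2 and Srsf9 had the highest coverage in MF, with means of 2683, 1912 and 1638 reads.

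Srsf9, an SR protein that acts on alternative exons, had a relative coverage of 2.44 and 2.58 in LF and of 9.50 and 6.56 in pLF. It rose by 1.65 ± 0.27 (SE) on the log2 scale (adjusted p = 0.00529, limma) in pLF against LF, a call lost only without replicate 1 of LF. At the other concentrations its polysome values of 4.56, 5.52, 4.34 and 4.09 also lay above its total values of 2.89, 3.38, 3.81 and 2.83, without passing the threshold.

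Srsf4 had 3.01 and 1.80 in MF and, where labelled HF, 0.820 and 1.02, against 5.61 and 5.17 in pMF and 5.45 and 4.13 in pHF. It rose by 1.21 (adjusted p = 0.0328) in pMF against MF and by 2.38 (adjusted p = 0.00269, limma) in pHF against HF, and the second call held with any 1 library left out. The call at 10 μM was lost without any 1 of the LF, MF and pMF libraries. Cytosines of the decay exons and introns described above count in this measure. Over cytosines in protein-coding exons alone, a choice added after the data were seen, the differences of Srsf4 were 0.67 (adjusted p = 0.0861) and 1.20 (adjusted p = 0.0115). Its unconverted reads, described further on, gave −0.19 at 10 μM.

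In pHF against HF, Srsf7 and Srsf3, which link splicing to mRNA export, rose by 2.95 ± 0.65 (adjusted p = 0.0182) and 2.23 ± 0.54 (adjusted p = 0.0247), while Srsf2 fell by 1.39 ± 0.32 (SE, adjusted p = 0.0208, limma). Srsf7 had 1.83 and 0.467 in HF and 6.48 and 7.88 in pHF, Srsf3 had 1.23 and 1.79 and then 4.04 and 12.1, and Srsf2 had 8.57 and 9.30 and then 3.40 and 3.43. Srsf2 ranged from 3.29 to 6.99 in the 10 libraries not labelled HF. Leaving out replicate 2 of HF or replicate 2 of pHF lost all 3 calls, replicate 1 of HF those of Srsf3 and Srsf2, and replicate 1 of pHF those of Srsf7 and Srsf2. Over protein-coding exons, the differences of Srsf7 and Srsf3 were 1.68 (adjusted p = 0.0382) and 1.17 (adjusted p = 0.154, limma). Over cytosines listed in all 12 libraries they were 0.43 and 0.34 (adjusted p = 0.00761 and 0.0521, limma). By unconverted reads they were 0.59 and 1.13 (adjusted p = 0.192 and 0.0132, edgeR).

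The hnRNP genes had a family median of 2.29 to 3.28 in total and 2.48 to 3.67 in polysome libraries, and a median log2 difference of −0.04, −0.17 and 0.60. Hnrnpa2b1, Hnrnpab and Hnrnpr had the highest coverage in MF, with means of 7035, 6816 and 3104 reads.

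Hnrnpl had a relative coverage of 2.12, 3.38, 2.72, 3.48, 1.93 and 1.94 in the 6 total libraries from LF replicate 1 to HF replicate 2. On polysomes it had 9.97, 6.10, 6.68, 6.94, 8.34 and 6.01. Every polysome library lay above every total library. The rise was 1.54 ± 0.32 in pLF (adjusted p = 0.0155), 1.15 ± 0.32 in pMF (adjusted p = 0.0461) and 1.87 ± 0.32 in pHF (SE, adjusted p = 0.00724, limma). Over protein-coding exons the differences were 0.99, 0.73 and 1.39, with adjusted p = 0.0438, 0.113 and 0.0136. The call at 1.5 μM was lost without replicate 1 of LF or of pLF and that at 10 μM without any 1 of the LF, MF, HF and pMF libraries, while that at 80 μM held with any 1 library left out but turned to −0.23 by unconverted reads.

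Hnrnpr, a cytoplasmic and nuclear RNA-binding protein related to Syncrip, went the other way. Its relative coverage was 6.14, 6.75, 6.57 and 5.41 in LF and MF, 2.88 and 3.19 in HF, and between 1.90 and 2.89 in all 6 polysome libraries. It fell by 1.28 ± 0.25 in pLF against LF (adjusted p = 0.012) and by 1.58 ± 0.25 in pMF against MF (SE, adjusted p = 0.00501, limma). In pHF against HF the difference was −0.29 and did not pass, and the total libraries labelled HF were themselves lower than MF by 0.97 (adjusted p = 0.0481). Restricting to protein-coding exons left −1.24 and −1.57 at 1.5 and 10 μM. Unconverted reads of Hnrnpr gave −0.61 and −0.85 there (adjusted p = 0.2 and 0.0787, edgeR). The call at 1.5 μM was lost without either LF library and that at 10 μM without replicate 1 of MF. Weighting cytosines by their chance of being listed turned the difference at 10 μM to 4.10.

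Of the remaining hnRNP calls, Hnrnpd (AUF1, which binds AU-rich elements) rose by 1.48 in pLF against LF (adjusted p = 0.0499), and Hnrnpul2 fell by 1.25 (adjusted p = 0.0461). In pHF against HF, Hnrnpc rose by 2.27 (adjusted p = 0.0443), Hnrnpa1 by 1.55 (adjusted p = 0.0175) and Hnrnpab by 0.99 (adjusted p = 0.0132), while Hnrnpul1 fell by 1.07 (adjusted p = 0.038, limma for all). Hnrnpd was called in 1 of 12 fits that each left out a library, Hnrnpul2 and Hnrnpc in 3, Hnrnpul1 in 4, and Hnrnpa1 and Hnrnpab in 9 (lost without either HF library and, in that order, without replicate 2 or replicate 1 of pHF). The direction turned for Hnrnpa1 by unconverted reads (−0.06), for Hnrnpab over cytosines listed in all libraries (−0.22) and for Hnrnpul1 under the weighting by listing chance (2.45). Hnrnpc was at 0.16 over cytosines listed in all libraries (adjusted p = 0.301, limma). The calls of Hnrnpd, Hnrnpul2, Hnrnpc and Hnrnpul1 were lost also when libraries of other groups were left out.

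The SF3a and SF3b complexes form the part of the U2 snRNP that recognises the branch point. The median log2 difference of their genes was −0.25, −0.70 and −0.21 at 1.5, 10 and 80 μM, with a family median of 1.33 to 2.70 in total and 1.08 to 1.85 in polysome libraries. By unconverted reads, described further on, the median difference was 0.23, −0.05 and 0.17, so its size and direction depended on the measure. Sf3b5, Sf3b2 and Sf3a1 had the highest coverage in MF (5389, 3763 and 1672 reads). Sf3b5 stayed between 8.99 and 16.7 and Sf3b2 between 7.19 and 11.3 in relative coverage over all 12 libraries, and neither was called by limma on coverage in these comparisons. Unconverted reads called Sf3b5 higher in 1 of them (edgeR).

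Sf3b1 was the family's only call by limma in the 3 polysome comparisons of coverage. Its relative coverage was 2.42 and 2.41 in LF and 2.70 and 2.66 in MF, against 0.382 and 0.582 in pLF and 0.743 and 0.616 in pMF. In reads, this was a median of 1127 and 1226 in LF against 113 and 206 in pLF. The groups did not overlap, and Sf3b1 fell by 2.36 ± 0.44 (adjusted p = 0.00973) in pLF against LF and by 1.99 ± 0.44 (SE, adjusted p = 0.0198, limma) in pMF against MF. In HF the total libraries were already at 0.878 and 1.19, beside 0.565 and 1.34 in pHF, and that comparison did not pass. Restriction to protein-coding exons left −2.34 and −1.95. The call at 1.5 μM was lost without either LF library, and that at 10 μM without any of the MF and pMF libraries.

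The Snrp genes code for the Sm ring and for proteins particular to the U1 and U2 snRNPs. Their family median was 2.36 to 3.81 in total and 2.98 to 7.50 in polysome libraries, and the median log2 difference was 0.55, 0.10 and 0.54. Snrpd2, Snrpb and Snrpc had the highest coverage in MF (7320, 3992 and 3501 reads), and none of these was called by limma on coverage in these comparisons. Unconverted reads called Snrpb higher in 1 of them (edgeR).

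Snrpf (SmF, an Sm ring protein) had 3.18 and 3.47 in LF and 2.46 and 2.84 in MF, against 8.99 and 13.7 in pLF and 8.11 and 10.2 in pMF. It rose by 1.74 ± 0.38 (adjusted p = 0.018) and 1.79 ± 0.38 (SE, adjusted p = 0.0172, limma). By unconverted reads the differences were 1.15 and 0.51 (adjusted p = 0.101 and 0.481, edgeR). The libraries labelled HF were at 9.92 and 7.62, in the polysome range, and pHF had its own replicates at 10.97 and 4.61. Snrpa1, a U2 snRNP protein, had 1.32 and 1.76 in LF and 6.55 and 7.05 in pLF, and rose by 2.16 (adjusted p = 0.0137). Snrpb2, its partner on U2 RNA, had 5.07 and 4.32 in MF and 0.654 and 0.770 in pMF, and fell by 2.72 (adjusted p = 0.0172, limma), while its unconverted reads gave 0.53. At 1.5 μM the same gene had 1.35 and 3.04 in LF and 2.35 and 3.66 in pLF, which overlap. The calls at 1.5 μM were lost without either LF library or replicate 2 of pLF, and those at 10 μM without any 1 of the MF and pMF libraries.

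A second measure of amount, the unconverted reads summed over a gene's cytosines with a level under 0.1 and tested with edgeR, was added after the data were seen. It called 10, 10 and 9 of the 48 genes at 1.5, 10 and 80 μM, beside 25%, 24.4% and 22% of all genes tested. Sf3b1 fell in all 3 comparisons, by 1.46, 0.71 and 1.80 on the log2 scale (adjusted p = 0.000515, 0.0492 and 0.00014, edgeR). Hnrnpc rose in all 3 by this measure, by 0.98, 0.69 and 0.82, while by coverage its differences at 1.5 and 10 μM were −0.66 and 0.20 and were not called (limma). The numbers of splicing factor genes called by both measures were 1, 1 and 4. This overlap was not counted over all genes, so it is no trait of the splicing factors. For Hnrnpl the reads gave 0.56 and 0.39 at 1.5 and 10 μM, and none of its 3 values passed the threshold, and for Srsf4 at 80 μM 0.28 (adjusted p = 0.595). Total unconverted reads of the 51 genes were 1.03% to 1.12% of those of all genes in each of the 12 libraries.

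Within a fraction, low and high folic acid were each set against 10 μM. In LF against MF none of the 48 genes was called, beside 0% of all genes tested, with 2 of the 48 at an unadjusted p under 0.05 (limma) and 0 called by DESeq2 or edgeR. Of all 8127 genes, 163 had an unadjusted p under 0.05 (limma) and DESeq2 called 23. The widest gaps between groups that did not overlap were those of Snrpb2 (−1.21), Sf3a1 (−0.84) and Hnrnpa2b1 (−0.79), with adjusted p = 1.0. In pLF against pMF none was called, beside 0.135% of all genes, with 4 at an unadjusted p under 0.05, 1 called by DESeq2 and 0 by edgeR. Over all 8127 genes these numbers were 652 by limma and 157 by DESeq2. Here Sf3b4 (2.17), Snrpb2 (2.05) and Snrpa1 (1.49) had the widest such gaps (adjusted p = 0.504, 0.344 and 0.353). In pHF against pMF none was called beside 0.0369% of all genes, with 2 at an unadjusted p under 0.05 and 0 called by DESeq2 or edgeR. Over all 8127 genes these numbers were 652 by limma and 147 by DESeq2. There Srsf7 (1.73), Srsf3 (1.10) and Hnrnpll (0.75) were widest (adjusted p = 0.57, 0.654 and 0.812, limma).

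HF against MF called 6 of the 48 genes beside 6.67% of all genes tested. Snrpf rose by 1.72 ± 0.38 (adjusted p = 0.0304) and Srsf2 by 1.28 ± 0.32 (adjusted p = 0.0422). Sf3a3 fell by 1.85 ± 0.34 (adjusted p = 0.0163), Snrpd1 by 1.67 ± 0.35 (adjusted p = 0.0257), Srsf4 by 1.35 ± 0.31 (adjusted p = 0.0327) and Hnrnpr by 0.97 ± 0.25 (SE, adjusted p = 0.0481, limma). The median difference was −0.37 over the 48 genes and −0.01 over all genes tested. Over cytosines listed in all 12 libraries it was −0.01 for 17 splicing factors and −0.10 for all 655 genes left, so its size depends on the cytosines used. All 6 calls rest on the libraries labelled HF. Each was lost without either MF library or without replicate 2 of HF, all but that of Sf3a3 without replicate 1 of HF, and those of Snrpf, Srsf2, Srsf4 and Hnrnpr without either LF library. The unconverted reads called none of the 48 genes (edgeR, 8 at an unadjusted p under 0.05). The share of all genes is not given for this count, which is thus no result about the splicing factors. Hnrnpr was at 0.05 by mean coverage, and under the weighting by listing chance Hnrnpr, Snrpd1 and Srsf4 were at 0.68, 0.49 and 0.14, against the direction given above.

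Whether the polysome difference itself changed with folate was tested as an interaction. At 1.5 against 10 μM no splicing factor passed, beside 0.0123% of all genes, with 3 at an unadjusted p under 0.05 (limma) and 0 called by DESeq2 or edgeR. Over all 8127 genes these numbers were 339 by limma and 41 by DESeq2. The widest were Snrpb2 (3.26), Sf3b4 (2.21) and Snrpa1 (1.69), with adjusted p of 0.61 or more. At 80 against 10 μM none passed, beside 0.898% of all genes, with 16 of 48 at an unadjusted p under 0.05 (limma), 7 called by DESeq2 and 0 by edgeR. Of all 8127 genes, 1515 had an unadjusted p under 0.05 (limma) and DESeq2 called 787. Mean coverage called 11 of the 48 (10 higher and 1 lower) beside 1153 of 8127 genes, and cytosines listed in all 12 libraries called 8 of 17 beside 359 of 655. The smallest adjusted p was that of Sf3a3 (0.0769, limma), whose polysome difference was higher at 80 μM by 1.97 ± 0.47 (SE), and the widest were Hnrnpa3 (2.92), Hnrnpll (2.49) and Srsf7 (2.49). The median of this difference of differences was 0.56 over the 48 genes and −0.05 over all genes tested, and it includes the libraries labelled HF. Over cytosines listed in all 12 libraries it was 0.081 for 17 splicing factors and 0.095 for all 655 genes left.

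The other splicing genes in a list of 133, of which 117 were tested, showed 8 rises and 10 falls in pLF against LF, 10 and 7 in pMF against MF, and 10 and 4 in pHF against HF. These were 15.4%, 14.5% and 11.97% of the 117 tested, beside 12.9%, 12.4% and 13.5% of all genes tested. In pMF against MF, Srrm2 (a large speckle scaffold), Dhx9 (an RNA helicase), Prpf8 (the centre of the U5 snRNP), Ddx5 and Elavl1 fell most, by 3.37, 2.81, 2.11, 1.96 and 1.61. The other concentrations differed for 2 of them: Elavl1 was at 0.63 in pLF against LF, and Srrm2 at 0.15 in pHF against HF. Lsm8, Lsm4, Sart1, Rbm8a and Snrnp40 rose most, by 2.96, 2.52, 2.10, 2.07 and 1.95. The value of Lsm8 rests on replicate 1 of MF (0.0647 against 0.508 in replicate 2) and was 1.47 without it. At the other concentrations the smallest of these were Snrnp40 (0.13) and Rbm8a (0.61) in pLF against LF and Sart1 (0.48) in pHF against HF, and Lsm8 was at 0.49 and 0.82. No gene of this list was called in LF against MF, pLF against pMF or pHF against pMF, and 3 rose and 4 fell in HF against MF.

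Few cytosines of these mRNAs were called as m5C. At cytosines with a coverage of at least 20, 0.0991% to 0.158% of reads were unconverted, and 97.6% to 99.5% of their listed cytosines had a level under 5%. A cytosine counted as a called site where 20 or more reads covered it and 10% or more of them, and no fewer than 6, were unconverted. Of 6083 to 13614 listed cytosines per library, called sites numbered 0, 0, 1 and 0 in LF and MF, 4, 5, 3 and 3 in pLF and pMF, 3 and 10 in pHF, and 25 and 22 where the label was HF. Per 10000 of these cytosines this was 0 to 0.807 in LF and MF, beside 7.19 to 11.1 over all listed cytosines outside the mitochondrial genome. The polysome libraries had 3.18 to 16.4, beside 13.5 to 75.8, and those labelled HF 19.4 and 18.1, beside 28.6 and 26.5. Each library thus had a lower rate in splicing factors than over all these cytosines, a difference that was not tested. In all 51 cytosines in 27 genes were called in at least 1 library, 36 of them in 1 library only, and 15 in 12 genes in both replicates of a group.

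Both Hnrnph1 sites called in all 6 polysome libraries sat in the same short sequence, repeated 151 bases apart. Hnrnph1 codes for an hnRNP that binds G-rich RNA. A site in Hnrnpa2b1 was called in both pLF libraries. The sequences are shown 5′ to 3′ in the RNA sense from mm10, with the called cytosine in capitals.
Hnrnph1, first site, mm10 chr11:50383735-50383755, plus strand: ttacggtagcCaaatgctagg
Hnrnph1, second site, mm10 chr11:50383886-50383906, plus strand: ttatggtagcCaaatgatggg
Hnrnpa2b1 site, mm10 chr6:51462888-51462908, minus strand: taagatttttCtcaaaagttt
The Hnrnph1 sequences share 18 of 21 bases, including the unbroken run ggtagcCaaatg. The first site lies in an exon of non-coding transcripts of the gene and the second in its coding sequence, and the Hnrnpa2b1 site lies in the 3′ UTR. A window of 51 bases around each occurs at 1 place in mm10.

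The second Hnrnph1 site, in the coding sequence, was read at a coverage of 2423 to 6418. In total RNA its level was 7.59% and 8.54% at 1.5 μM, 8.02% and 8.31% at 10 μM and 9.68% and 8.43% at 80 μM. On polysomes it was 22.8% and 21.1%, 20.7% and 21.6%, and 27.3% and 23.0% in the same order. Every polysome library lay above every total library, with group means of 8.07% ± 0.666, 8.16% ± 0.201 and 9.05% ± 0.886 in LF, MF and HF and 22.0% ± 1.19, 21.1% ± 0.646 and 25.2% ± 3.05 in pLF, pMF and pHF (SD, n = 2). The difference of pooled levels was 13.7, 13.0 and 15.5 percentage points at 1.5, 10 and 80 μM. Fisher's exact test on pooled reads gave adjusted p = 2.11e-147, 8.78e-115 and 5.05e-125, and limma on the log odds, which uses the spread between replicates, gave adjusted p = 0.017, 0.0147 and 0.0211.

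The first Hnrnph1 site, at a coverage of 240 to 899, had total RNA levels of 4.78% and 7.21% at 1.5 μM, 4.54% and 6.07% at 10 μM and 4.70% and 2.84% at 80 μM. On polysomes it had 12.5% and 19.1%, 16.7% and 11.4%, and 17.1% and 14.0%. Again no polysome library overlapped a total library, with differences of 10.6, 8.77 and 11.4 points (adjusted p = 0.0462, 0.0379 and 0.0139, limma). With the replicate number as a block, adjusted p was 0.0223, 0.0713 and 0.0169 (limma), so the call at 10 μM was lost. Other listed cytosines within 100 bases of the second site had levels of at most 2.18% in any library. Near the first site they reached 5.0% in replicate 1 of HF, above the site itself, and at most 1.28% in polysome libraries.

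These sites entered the polysome comparisons because polysome libraries called them, and a site chosen where it is high tends to differ, so the p-values of such sites are too small. Among all sites tested, each called in both replicates of either group, 54.8% were called in pLF against LF, 55.9% in pMF against MF and 66.7% in pHF against HF. Of splicing factor sites, 3 of 3, 2 of 2 and 4 of 4 were called, and these counts are no result about the splicing factors. In pHF against HF, 2 of the 4 (in Snrpa and Sf3b2) were chosen because HF called them and were lower on polysomes.

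The Hnrnpa2b1 site varied widely between replicates of a group. Its polysome levels were 50.1% and 33.1% at 1.5 μM, 5.22% and 14.7% at 10 μM and 30.6% and 3.71% at 80 μM, while LF and MF stayed between 0.259% and 0.990% and HF was at 2.70% and 4.00%. It was higher in pLF than in LF by 38.6 points (Fisher's exact test, adjusted p = 9.22e-214; limma, adjusted p = 0.00316). Against pMF, pLF was higher by 29.6 points, which passed Fisher's exact test (adjusted p = 5.13e-72) but not limma (adjusted p = 0.34). Of these groups only pLF called the site in both replicates. It thus entered this comparison where it is high, and its p-values here are too small as well. Other listed cytosines within 100 bases reached 5.56% in replicate 1 of HF, above the site there, and at most 3.03% in polysome libraries.

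**Figure D4:**
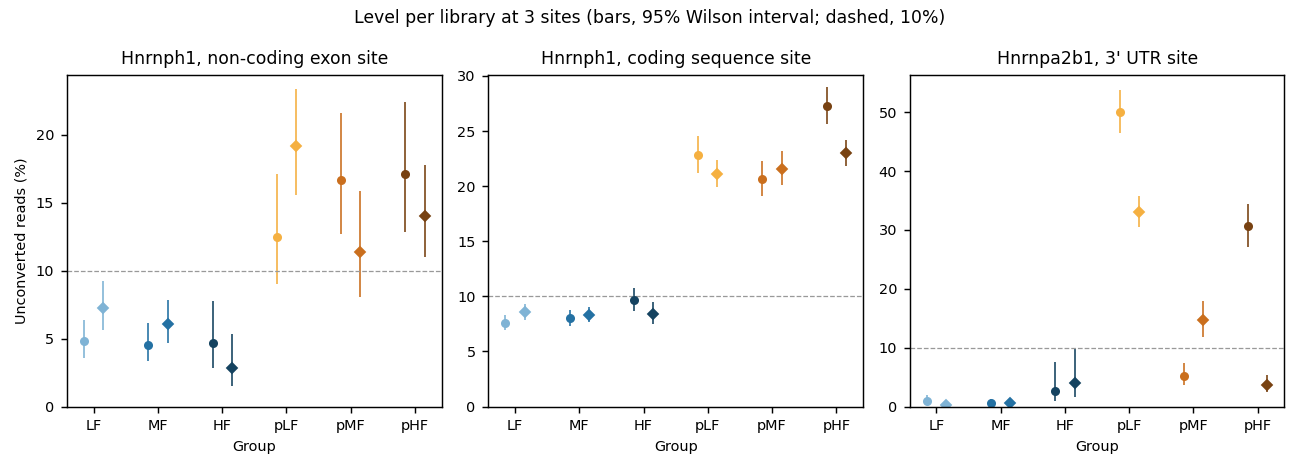
Level (% unconverted reads) in each library at the first and second Hnrnph1 sites and at the Hnrnpa2b1 site, by group. Points are libraries (circle for replicate 1, diamond for replicate 2), bars are 95% Wilson intervals that cover counting error only, and the dashed line marks 10%. At both Hnrnph1 sites the 6 polysome libraries lie above the 6 total libraries, while the Hnrnpa2b1 site spreads widely within pMF and pHF.

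No splicing factor site could be tested in LF against MF, where 1.09% of all sites were called. In pLF against pMF 1 of 3 sites was called by Fisher's exact test (the Hnrnpa2b1 site) beside 4.06% of all sites, and in pHF against pMF 1 of 2 beside 8.82%. The latter was the second Hnrnph1 site, 3.41 points higher in pHF (adjusted p = 0.000512), and limma did not call it (adjusted p = 0.965). The Hnrnpa2b1 site entered pLF against pMF through pLF alone, where it is high, so its call is a description.

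The libraries labelled HF called 12 sites in 10 splicing factor genes in both replicates, and no other library called any of them. Where another library listed the same cytosine, its level was at most 5.0%. Each of the 12 directly follows a G and has at least 4 G among the 5 bases before it, which none of the other 3 sites has. The 4 with the highest mean levels are shown, and the sixth, in Hnrnpk, a gene with 2 such sites, with the called cytosine in capitals.
Hnrnpa0, 3′ UTR, mm10 chr13:58127114-58127134, minus strand: tttgggggggCgggtgggcgg
Sf3b2, coding sequence, mm10 chr19:5274476-5274496, minus strand: gccgtgggggCagcaagaaat
Srsf2, coding sequence, mm10 chr11:116852608-116852628, minus strand: gccgccggggCccgccacccc
Hnrnpl, retained-intron exon, mm10 chr7:28815793-28815813, plus strand: gtagagggggCtcagcatctc
Hnrnpk, coding sequence, mm10 chr13:58393745-58393765, minus strand: atgcagggggCcgtggctcat

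Hnrnpa0 was read as 96.2% and 100% unconverted in HF at a coverage of 53 and 32 and was listed in no other library. Sf3b2 had 66.6% and 61.3% at a coverage of 658 and 462, against at most 0.581% in the 8 other libraries that listed it, at coverages of 602 to 7634. The difference of pHF minus HF was −64.3 points. The site in Snrpa had 16.3% and 28.0% in HF against 0.242% and 0.336% in MF, 21.1 points higher, and its 51-base window matches 3 places in mm10, so reads may be shared between copies. In HF against MF, 4 of 4 splicing factor sites were called (in Hnrnpdl, in Snrpa and 2 in Hnrnpk), beside 88.1% of all sites tested. These sites were chosen where HF is high, so their differences are a description. The window of the Hnrnpk site at mm10 chr13 position 58399183 occurs at 2 places.

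This sequence context was not particular to splicing factors. Among all called sites, 54.2% and 54.6% had at least 4 G in the 5 bases before the cytosine in the libraries labelled HF, against 1.99% to 3.46% in the other 10 libraries. In the splicing factor genes the numbers were 22 of 25 and 19 of 22 called sites. Of cytosines with a level under 0.05, 1.95% to 2.76% had that context in the splicing factor genes and 1.61% to 2.97% among all listed.

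**Figure D5:**
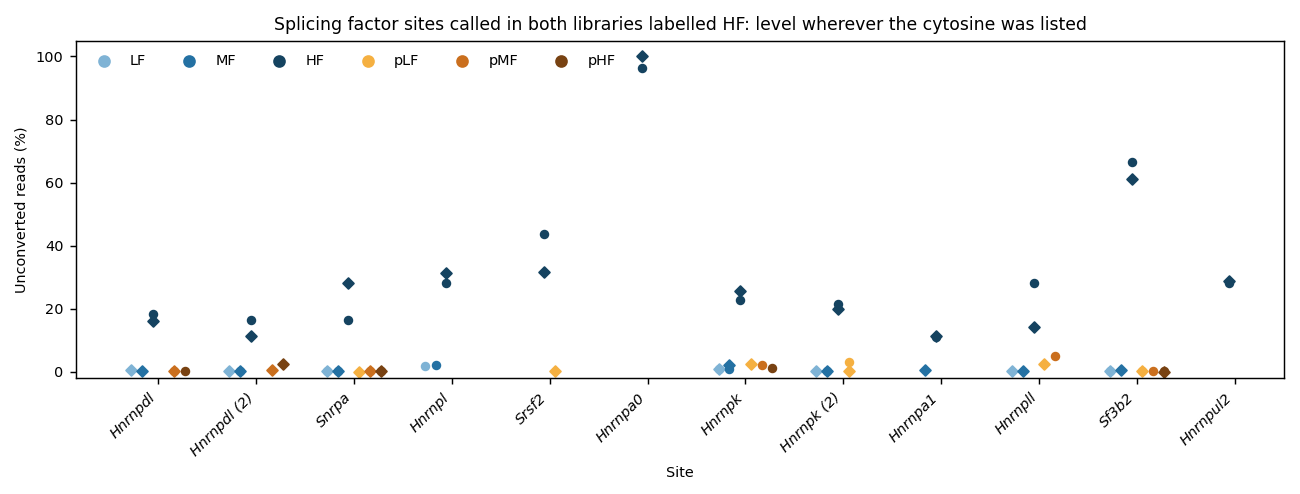
Level (% unconverted reads) at the 12 splicing factor sites called in both libraries labelled HF, with a point for each library that listed the cytosine and colours for the 6 groups (circle for replicate 1, diamond for replicate 2). Both points labelled HF lie at or above 10% at every site, and all other points lie at or below 5.0%.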

How the data were processed

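RNA BS-seq of 12 libraries (6 groups of 2) was used. Per the study's methods, the authors used fastp for trimming, meRanGh for unique alignment (mm10) and meRanCall for cytosine calls. The lists carry gene names, for which the study's source code names meRanAnnotate. The libraries were stranded. The deposited values are raw counts (coverage and unconverted reads per cytosine), which the authors did not normalize between libraries, and the level, a fraction the authors computed as unconverted over unconverted plus converted reads. The lists precede their filters for incomplete conversion, signal over noise and RNA structure. Only cytosines with an unconverted read are listed, so listing favours highly covered positions and cytosines the reaction missed, and depth moves with it. Summed coverage was 1186213013 to 2857966129 per library.

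Samples were grouped by the labels. Positions listed with a variant base were not used. Exon classes came from GENCODE vM21 on mm10. Gene medians were tested with limma 3.58.1 in R 4.3.3 in 1 fit of 6 group means over 12 libraries, on log2 relative coverage, with Benjamini-Hochberg adjustment over all genes and a threshold of 0.05. Exon shares used log2 ratios with 0.5 added. Sites were tested by Fisher's exact test, two-sided, on the pooled reads of a group (scipy 1.17.1) and with limma on log odds with 0.5 added. Tested sites had 20 or more reads in all 4 libraries and were called in both replicates of either group. edgeR 4.0.16, DESeq2 1.42.0, Python 3.11.15, numpy 2.4.6, pandas 2.3.3 and matplotlib 3.10.9 were also used, and statistics were tested on simulated data. The planned exon measure, a ratio of median coverages, left 16 genes and no splicing factor, so the ratio of unconverted reads was added.

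Genes and lists were chosen with earlier results of these data known. Named are genes with a site called in both replicates, the 3 of each family with the highest MF coverage, up to 8 called genes per comparison (otherwise the 3 with the widest gap between groups), called sites, called exon shares, and up to 5 other splicing genes in each direction in pMF against MF. Further genes were named after their values were seen. Alternatives were other scalings, filters, cytosines, summaries and tests, a replicate block and each library left out. 1 gene of the families is not reported here.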

Additional observations from a re-analysis of the deposited data

How the results depend on the processing

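Counts here are splicing factor genes called. For coverage, DESeq2 on rounded medians gave 11 in HF against MF (6 as reported), 16 in pHF against HF (9), 1 in pLF against pMF (0) and 7 for the interaction at 80 μM (0), beside 1186, 1970, 157 and 787 of all 8127 genes. Cytosines listed in all 12 libraries gave 10 of 17 tested in HF against MF and 8 of 17 for that interaction (435 and 359 of 655 genes). A level under 0.02 gave 1 for that interaction, beside 249 of 7448 genes. Mean coverage gave 16 in HF against MF, 20 in pLF against LF, 20 in pMF against MF, 22 in pHF against HF and 11 for the interaction, beside 2087, 2864, 2802, 3573 and 1153 of all 8127 genes. After the data were seen, 2 alternatives were added. Unconverted reads gave 0 in HF against MF and 10 in pMF against MF (6), the latter beside 2070 of 8477 genes. Weighting cytosines by their chance of being listed gave 1 in LF against MF, 2 in HF against MF, 3 in pLF against LF (8), 2 in pMF against MF and 0 in pHF against HF. The share of all genes is not given for the weighting or for unconverted reads in HF against MF. Those counts are thus no result about the splicing factors. The planned ratio of median coverages of exon classes called 0 splicing factors because none was left to test (0 to 0 with a library left out), where unconverted reads called 6, 9 and 7 at 1.5, 10 and 80 μM for exons and 5, 4 and 4 for introns. Adding 5 in place of 0.5 gave 4, 4 and 5 for exons and 4, 2 and 2 for introns. Of all genes, 66, 39 and 41 of 201 were then lower for exons and 284, 267 and 171 of 628 for introns. A mean of at least 5 intron reads gave 11, 12 and 7 of 14 tested, beside 906, 959 and 733 of 1323 genes. For sites, limma on log odds gave 0 in pLF against pMF and 0 in pHF against pMF (1 and 1 by Fisher's exact test). A beta-binomial test was not run.

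Single values that changed sign were these. Under mean coverage, Hnrnpr in HF against MF was 0.05. Under the weighting by listing chance, Hnrnpr was 0.68, Snrpd1 0.49 and Srsf4 0.14 in HF against MF, Hnrnpr 4.10 in pMF against MF and Hnrnpul1 2.45 in pHF against HF. By unconverted reads, Snrpb2 was 0.53 and Srsf4 −0.19 in pMF against MF, and Hnrnpa1 −0.06 and Hnrnpl −0.23 in pHF against HF. Over cytosines listed in all 12 libraries, Hnrnpab was −0.22 in pHF against HF. In pLF against pMF with 1 library left out, the first Hnrnph1 site ranged from −1.60 points (without replicate 2 of pLF; −0.154 without replicate 2 of pMF) to 5.14, and the second from −0.00846 (without replicate 1 of pLF) to 1.68. In pHF against pMF the first ranged from −1.51 (without replicate 2 of pMF; −0.0517 without replicate 1 of pHF) to 3.79. The causes were not tested. Of the other values of single genes and sites, 567 kept their direction and side of the threshold and 150 their direction only.

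With each library left out in turn, coverage calls ranged from 0 to 9 in HF against MF, 0 to 0 in LF against MF, 0 to 1 in pLF against pMF, 0 to 0 in pHF against pMF, 1 to 7 in pLF against LF, 0 to 7 in pMF against MF, 3 to 11 in pHF against HF, and 0 to 0 and 0 to 1 for the interactions at 1.5 and 80 μM. These counts moved by over 1.5 times without any 1 of the LF, MF and HF libraries (HF against MF), without either LF library or replicate 1 of pLF (pLF against LF), any 1 of the MF and pMF libraries (pMF against MF), either HF library or replicate 2 of pHF (pHF against HF), replicate 1 of pLF (pLF against pMF), and either pLF library or replicate 1 of pHF (interaction at 80 μM). A library alone in its group was assumed to vary like the other groups. Exon calls ranged from 5 to 6, 5 to 9 and 6 to 7 at 1.5, 10 and 80 μM, intron calls from 4 to 5, 3 to 4 and 3 to 4. Site calls ranged from 5 to 8 in HF against MF (4), 0 to 0 in LF against MF, 1 to 1 in pLF against pMF, 0 to 2 in pHF against pMF, 3 to 3 in pLF against LF, 2 to 3 in pMF against MF and 5 to 7 in pHF against HF (4), with more sites tested. Leaving out replicate 1 of MF moved the exon count at 10 μM to 5 and the sites in HF against MF to 8, replicate 1 of HF moved the latter to 7, replicates 1 and 2 of pHF moved pHF against pMF to 0 and 2, and replicate 2 of pHF moved pHF against HF to 7.

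Whether libraries with the same replicate number share a culture is not stated in the sources used here. Correlations of their deviations between groups were −0.05 to 0.02, which cannot decide it, since noise of single libraries also lowers them. With the replicate number as a block, coverage calls were 4 in HF against MF, 6 in pLF against LF, 5 in pMF against MF and 8 in pHF against HF. Of all 8127 genes, 412, 908, 848 and 960 were then called. Site calls by limma with this block were 0 in pLF against pMF, 0 in pHF against pMF and 1 in pMF against MF (2), the last beside 67 of 383 sites.

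Listing requires 10 reads and 1 unconverted read, so lowly covered sequence is seen only in part, and 2 libraries per group limit every test. Counting intervals leave out the clumping of unconverted reads.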
